A study of Mus musculus with 12 samples.

Results

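The immediate early factors of the AP-1 and EGR families were followed in mouse glioma cells under low oxygen and 2 inhibitors. They are the FOS proteins Fos, Fosb, Fosl1 and Fosl2, the JUN proteins Jun, Junb and Jund, and the zinc finger factors Egr1, Egr2 and Egr3. A transcript cluster, the set of probes that the array reads together as 1 transcript, was taken as a member when its platform symbol was one of these names. The names matched 12 of 22206 transcript clusters and 10 of 19505 genes. Egr3 had 3 clusters and each other gene had 1. Egr3 is given by the brightest of its clusters, that is, the one whose 12-array mean was highest.

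RNA came from cultures of S100β-v-erbB/p53-/- TSC1 cells of the FVB-NJ strain, and the labels do not explain the name TSC1. All groups therefore carried the v-erbB transgene, an active relative of the epidermal growth factor receptor, driven by the S100β promoter, and lacked p53. After 16 h in normoxia with the solvent DMSO, or in hypoxia with DMSO, brefeldin A (BFA) or EHT-1864, each group was measured on 3 Clarion S arrays, 12 in all. BFA stops transport from the endoplasmic reticulum to the Golgi and EHT-1864 inhibits Rac GTPases. EHT-1864 was given at 1 µM, while the labels give BFA at 1 µM in the protocol and at 0.1 µM in the series title, which was not settled. The inhibitors were not given in normoxia, and the oxygen level of hypoxia is not given in the sources used here. The design text speaks of 3 independent cultures. These are bulk samples of 1 cell system, in which fewer cells of a type and less RNA per cell cannot be told apart.

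AP-1 is a dimer that binds a short palindromic DNA site. FOS proteins need a JUN partner to bind it, whereas JUN proteins can also pair with each other or with ATF and MAF proteins. EGR factors bind GC-rich sites and are held back by the corepressors Nab1 and Nab2. In resting cells most of these genes are switched on within minutes by growth factors or stress, through MAP kinases acting on serum response factor, its ternary complex partners and CREB or ATF proteins already on the promoters. At 16 h the arrays read a single late time point and not the first minutes of the exposure. Whether a level was sustained was not tested.

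The stretches just upstream of 4 members are printed because each of these members has a different pattern over the groups: Fos low with BFA, Jun high with EHT-1864, Egr2 low with both and Fosl2 high in hypoxia. They were chosen among the members in the promoter table. They are the 250 bases before the start of the RefSeq transcript on GRCm38.p6, written 5′ to 3′ on the strand of the gene, and capitals mark the motif matches. Fos lies at chr12:85473640-85473889 on the plus strand, Jun at chr4:95052223-95052472 on the minus strand, Egr2 at chr10:67537619-67537868 on the plus strand and Fosl2 at chr5:32136222-32136471 on the plus strand. Egr2 has 5 listed starts, and the window is that of the first of 3 that lie within 61 bases.
Fos: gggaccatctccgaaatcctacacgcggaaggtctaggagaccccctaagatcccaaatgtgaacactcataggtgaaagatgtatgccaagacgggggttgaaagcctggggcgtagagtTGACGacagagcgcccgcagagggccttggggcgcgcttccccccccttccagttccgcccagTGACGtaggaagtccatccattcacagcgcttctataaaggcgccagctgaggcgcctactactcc
Jun: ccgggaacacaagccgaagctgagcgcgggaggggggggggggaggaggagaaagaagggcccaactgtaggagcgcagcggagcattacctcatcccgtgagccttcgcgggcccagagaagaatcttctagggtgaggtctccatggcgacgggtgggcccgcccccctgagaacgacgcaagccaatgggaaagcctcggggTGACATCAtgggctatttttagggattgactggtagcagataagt
Egr2: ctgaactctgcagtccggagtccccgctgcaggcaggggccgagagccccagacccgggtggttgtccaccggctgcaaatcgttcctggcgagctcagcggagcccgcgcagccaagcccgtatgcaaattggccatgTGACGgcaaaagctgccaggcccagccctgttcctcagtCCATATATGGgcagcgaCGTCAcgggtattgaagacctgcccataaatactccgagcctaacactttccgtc
Fosl2: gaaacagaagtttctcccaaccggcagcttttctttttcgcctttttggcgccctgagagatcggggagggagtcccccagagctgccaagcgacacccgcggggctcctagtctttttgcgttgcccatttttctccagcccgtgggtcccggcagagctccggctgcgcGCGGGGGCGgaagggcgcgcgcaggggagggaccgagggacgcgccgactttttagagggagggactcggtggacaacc

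In the Fos window the capitals mark 2 copies of TGACG, the first letters of the CREB site, at 129 to 125 and 66 to 62 bases before the start. Such a match was found in 17.8% of 32851 promoter windows of this length. The Jun window holds TGACATCA, an AP-1-like site, at 45 to 38 bases, which 2.93% of windows hold. In the Egr2 window a CArG box, the site of serum response factor, reads CCATATATGG at 72 to 63 bases, and 1.47% of windows hold such a box. That window also has TGACG at 111 to 107 bases and its reverse complement CGTCA at 55 to 51 bases. The Fosl2 window holds GCGGGGGCG, an EGR site, at 79 to 71 bases, and the form searched, GCGNGGGCG, is in 4.7% of windows. Both strands were searched. TGACG and TGACATCA were added after the windows had been read, and TGACG also lies within the full CREB site TGACGTCA, which 1.55% of windows hold. The promoter table held 7 of the 10 members. The other windows had TGACG in Fosb at 60 to 56 bases and in Junb at 106 to 102 bases, an EGR site in Fosb at 50 to 42 bases, and the reverse complement CACGT of the hypoxia response core in Jund at 83 to 79 and 74 to 70 bases. ACGTG was searched for that core and 16.6% of windows hold it. The letters searched for AP-1 (TGANTCA, 6.75% of windows), for the ETS core (CCGGAAG, 6.91%) and for C/EBP and ATF (TGATGNAA, 3.45%) were not in any of the 7 windows. A match is a description of letters and not a measured binding site.

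Values are log2 signals, so a difference of 1 is a doubling. In what follows "±" after a change is the standard error of a limma fit over all 12 arrays, and p-values were adjusted by Benjamini-Hochberg over all 22206 clusters, with a call below 0.05. The floor of an array is the 95th percentile of its neg control probes, and a gene below it was not well above background. This floor was 5.61 on average in both DMSO groups, 6.01 under EHT-1864 and 6.49 under BFA. The hybridization controls, which are added to the hybridization mix, were also higher with the compounds. Their mean was 9.85 in normoxia, 9.76 in hypoxia, 10.93 with BFA and 10.25 with EHT-1864. The poly-A controls, which are spiked into the RNA sample, averaged 7.60, 7.61, 8.22 and 7.91 in the same order, with SDs of 0.24 to 0.41. All clusters spread less widely under BFA, with a standard deviation of 2.28 against 2.51 in hypoxia. Small rises of dim genes under BFA are therefore given below together with the floor, and the part of the floor's shift in them was not tested. Of 8 markers of the labelled glioma cells, 8 lay above the floor on every DMSO array, among them Olig2 and Sox10, transcription factors of the oligodendrocyte lineage. Their summed log2 signals were 82.7 to 83.0 in hypoxia, 61.9 to 62.8 with BFA and 72.4 to 73.8 with EHT-1864, and 7 of 8 fell under each compound. All 6 markers of microglia and all 5 of endothelial cells lay below the floor on every array, as did 6 of 7 of fibroblasts and pericytes. Of 5 neuronal markers, 3 lay above the floor on all arrays of each DMSO group and 2 on all arrays of each compound. Of 5 astrocyte markers, 1 did so in normoxia, 2 in hypoxia, 0 with BFA and 1 with EHT-1864. The summed log2 signals of the neuronal markers were 29.3 to 30.0 in hypoxia, 25.9 to 27.4 with BFA and 28.7 on all 3 EHT-1864 arrays, and those of the astrocyte markers 25.6 to 26.5, 21.6 to 22.5 and 23.6 to 24.01. With BFA 2 markers of each of these types fell, and with EHT-1864 2 astrocyte markers and 1 neuronal marker. Of all clusters 24.6% fell with BFA and 17.4% with EHT-1864, so the 1 of 5 neuronal markers with EHT-1864 was near that share. The part of the falling glioma, neuronal and astrocyte markers in the changes below was not tested.

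In hypoxia alone 1 of 10 members passed the test, and it was higher, where 2.67% of all clusters were called (2.11% higher, 0.563% lower). With BFA 8 of 10 were called, 4 higher and 4 lower, where 50.7% of all clusters were called (26.1% higher, 24.6% lower). Measured from the floor, the 4 higher ones changed sign, to -0.034 for Fosb, -0.095 for Fosl1, -0.086 for Junb and -0.45 for Jund. On that scale 1.91% of all called clusters were higher with BFA, so this turn is no result about the members. With EHT-1864 5 of 10 were called, 2 higher and 3 lower, where 30.5% were (13% higher, 17.4% lower). The arrays of both groups did not overlap for 3 members in hypoxia against normoxia (30.2% of all clusters), for 9 with BFA (55.9%) and for 5 with EHT-1864 (48.5%). All of these comparisons share the hypoxia DMSO arrays. The median log2 change of the members was 0.05 in hypoxia (-0.03 over all clusters), 0.19 with BFA (0.11) and -0.11 with EHT-1864 (0.06), so the families did not move as a block and are described gene by gene.

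**Figure D1:**
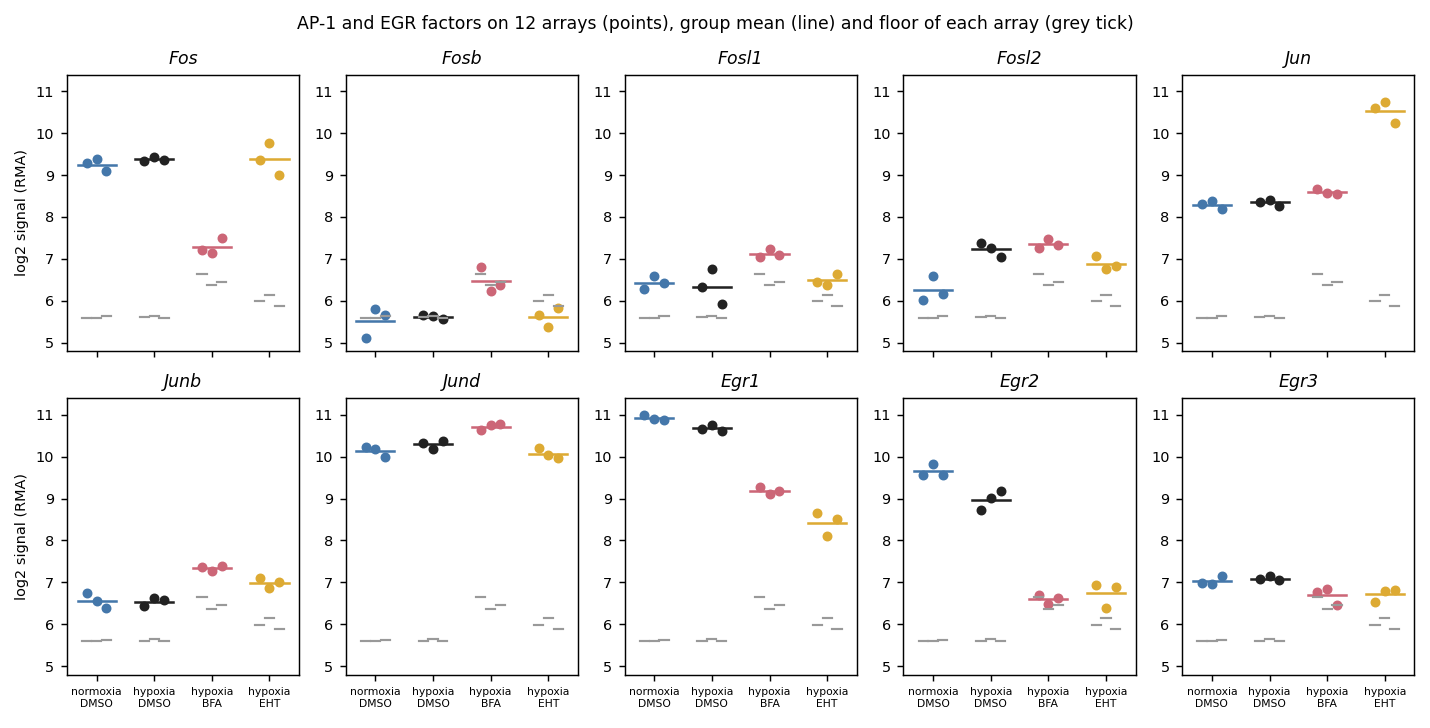
Log2 signal of the 10 members on each of the 12 arrays, with the group mean as a line and the floor of each array as a grey tick. Fos is low on the 3 BFA arrays only, at 7.14 to 7.49, Jun is high on the 3 EHT-1864 arrays only, at 10.24 to 10.75, and Egr1 and Egr2 are low under both compounds.

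Fos, the partner of Jun in the classical AP-1 dimer, fell under BFA alone. Its log2 signal was 9.28, 9.38 and 9.10 in normoxia, 9.34, 9.44 and 9.36 in hypoxia, 7.21, 7.14 and 7.49 with BFA, and 9.37, 9.76 and 9.01 with EHT-1864. The BFA arrays lay below all 9 others, which overlapped. The fall against hypoxia with DMSO was 4.29-fold, a log2 change of -2.10 ± 0.17 (limma adjusted p = 7.60e-07). For EHT-1864 the change was 0.00 (limma adjusted p = 0.999), with a 95% interval from -0.37 to 0.37. The difference between the compounds was itself past the threshold, with BFA lower by the same -2.10 (limma adjusted p = 1.05e-06). Hypoxia against normoxia gave 0.13 ± 0.17 (limma adjusted p = 0.794).

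Fosl2, the FOS protein Fra-2, was the one member that hypoxia raised. It read 6.02, 6.58 and 6.17 in normoxia and 7.38, 7.26 and 7.05 in hypoxia, 1.96-fold higher, a log2 change of 0.97 ± 0.16 (limma adjusted p = 0.00471). The 2 groups did not overlap. The values stayed at 7.26, 7.47 and 7.32 with BFA and at 7.08, 6.77 and 6.82 with EHT-1864. Neither compound passed the test against hypoxia with DMSO, at 0.12 for BFA (limma adjusted p = 0.540) and -0.34 for EHT-1864 (limma adjusted p = 0.125). Against normoxia the signal was higher with both, with BFA by 1.10 (limma adjusted p = 9.44e-05) and with EHT-1864 by 0.63 (limma adjusted p = 0.0114). Both of these calls were lost when measured from the floor, at 0.21 for BFA (limma adjusted p = 0.311) and 0.24 for EHT-1864 (limma adjusted p = 0.341). On the deposited scale the EHT-1864 call against normoxia ended without normoxia array 1 (limma adjusted p = 0.0621). The BFA change reached 0.48 (limma adjusted p = 0.0171) after quantile normalization of the deposited values, and measured from the floor it was -0.76 (limma adjusted p = 0.00213). Measured from the floor the EHT-1864 change against hypoxia with DMSO was also called, at -0.73 (limma adjusted p = 0.00627).

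Fosl1, the FOS protein Fra-1, was dim and higher under BFA. Its signal was 6.28, 6.60 and 6.42 in normoxia, 6.32, 6.77 and 5.93 in hypoxia, 7.04, 7.23 and 7.09 with BFA and 6.46, 6.38 and 6.63 with EHT-1864. The BFA arrays lay above all others, by 0.78 ± 0.18 against hypoxia with DMSO (limma adjusted p = 0.00320). Its mean distance from the floor was 0.72 in hypoxia and 0.63 with BFA, so this rise was no larger than that of the floor. EHT-1864 gave 0.15 ± 0.18 (limma adjusted p = 0.559).

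Fosb, which in neurons also yields the stable form ΔFosB, lay at the floor throughout. Its signal was 5.10, 5.81 and 5.66 in normoxia, 5.65, 5.64 and 5.56 in hypoxia, 6.79, 6.23 and 6.36 with BFA and 5.67, 5.36 and 5.84 with EHT-1864. It was above the floor on 2, 2, 1 and 0 arrays of these groups. The higher BFA signal, 0.84 ± 0.20 against hypoxia with DMSO, passed the test (limma adjusted p = 0.00342), and its mean distance from the floor was 0.0046 in hypoxia and -0.03 with BFA.

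Jun, the main DNA-binding partner of AP-1 and the target of JNK kinases, rose under EHT-1864. It read 8.32, 8.37 and 8.20 in normoxia, 8.36, 8.40 and 8.27 in hypoxia, 8.67, 8.57 and 8.55 with BFA, and 10.59, 10.75 and 10.24 with EHT-1864. All 3 EHT-1864 arrays lay above the other 9. The rise was 4.54-fold against hypoxia with DMSO, a log2 change of 2.18 ± 0.13 (limma adjusted p = 3.07e-07). BFA gave 0.25 ± 0.13 (limma adjusted p = 0.138) although its arrays lay above those of hypoxia, and was 3.82-fold lower than EHT-1864 (limma adjusted p = 2.65e-07). The BFA change depended on the scaling, at 0.54 (limma adjusted p = 0.00550) after quantile normalization and -0.63 (limma adjusted p = 0.00119) measured from the floor.

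Junb, which can pair with FOS proteins and restrains some Jun targets, was higher under both compounds. Its signal was 6.75, 6.54 and 6.38 in normoxia, 6.44, 6.62 and 6.57 in hypoxia, 7.36, 7.26 and 7.38 with BFA and 7.10, 6.87 and 7.01 with EHT-1864. The arrays of each compound lay above all 6 DMSO arrays. Against hypoxia with DMSO the change was 0.79 ± 0.13 for BFA (limma adjusted p = 2.04e-04) and 0.45 ± 0.13 for EHT-1864 (limma adjusted p = 0.0160). The EHT-1864 call ended without hypoxia DMSO array 1 (limma adjusted p = 0.0640) and without EHT-1864 array 1 (limma adjusted p = 0.0561). Measured from the floor, the mean distance was 0.93 in hypoxia, 0.84 with BFA and 0.99 with EHT-1864, so neither rise exceeded that of the floor by more than 0.06.

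Jund, the JUN protein that resting cells also express, was somewhat higher under BFA. It read 10.22, 10.19 and 9.998 in normoxia, 10.33, 10.20 and 10.37 in hypoxia, 10.63, 10.76 and 10.78 with BFA and 10.21, 10.05 and 9.96 with EHT-1864. The BFA arrays were the highest, by 0.42 ± 0.12 against hypoxia with DMSO (limma adjusted p = 0.00984), and the other groups overlapped. Measured from the floor, the sign turned, with a change of -0.45 (limma adjusted p = 0.0201). EHT-1864 gave -0.23 ± 0.12 (limma adjusted p = 0.171). This was called with a trended and robust variance (limma adjusted p = 0.0439) and, at -0.62, measured from the floor (limma adjusted p = 0.00685).

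Egr1, which growth factor signalling through ERK induces, fell under both compounds and further under EHT-1864. Its signal was 11.003, 10.90 and 10.88 in normoxia, 10.67, 10.75 and 10.62 in hypoxia, 9.28, 9.11 and 9.18 with BFA, and 8.67, 8.10 and 8.50 with EHT-1864. Each compound's arrays lay below all DMSO arrays, and the EHT-1864 arrays below those of BFA. The fall against hypoxia with DMSO was 2.81-fold for BFA, -1.49 ± 0.14 on the log2 scale (limma adjusted p = 2.60e-06). For EHT-1864 it was 4.78-fold, -2.26 ± 0.14 (limma adjusted p = 3.37e-07). BFA exceeded EHT-1864 by 0.77 ± 0.14 (limma adjusted p = 8.01e-04), and measured from the floor this difference was 0.28 (limma adjusted p = 0.206). Hypoxia against normoxia gave -0.25 ± 0.14 (limma adjusted p = 0.436), although the 2 groups did not overlap.

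Egr2, known for its part in myelination by Schwann cells and in hindbrain patterning, fell to near the floor under both compounds. It read 9.56, 9.83 and 9.57 in normoxia, 8.73, 9.02 and 9.18 in hypoxia, 6.70, 6.49 and 6.63 with BFA, and 6.94, 6.38 and 6.90 with EHT-1864. Its mean distance from the floor was 3.36 in hypoxia, 0.12 with BFA and 0.74 with EHT-1864. The fall against hypoxia with DMSO was 5.17-fold for BFA, -2.37 ± 0.17 (limma adjusted p = 2.08e-07). For EHT-1864 it was 4.71-fold, -2.24 ± 0.17 (limma adjusted p = 1.64e-06). The compounds overlapped and differed by -0.13 (limma adjusted p = 0.580), with a 95% interval from -0.50 to 0.23. Measured from the floor, BFA was lower than EHT-1864 by -0.62 (limma adjusted p = 0.0172). In hypoxia all 3 arrays lay below those of normoxia, by -0.67 ± 0.17. This narrowly missed the threshold (limma adjusted p = 0.0543) and passed it under 7 of 8 other settings of the normalization, filter or model. Of 12 fits that left out 1 array only 2 called it, with a limma adjusted p of up to 0.222.

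Egr3, known for its part in the development of muscle spindles, gave no single direction. Its brightest cluster read 6.99, 6.96 and 7.16 in normoxia, 7.08, 7.14 and 7.05 in hypoxia, 6.78, 6.84 and 6.47 with BFA and 6.53, 6.79 and 6.82 with EHT-1864. Both compounds lay below all DMSO arrays, by -0.39 ± 0.13 for BFA (limma adjusted p = 0.0252) and -0.38 ± 0.13 for EHT-1864 (limma adjusted p = 0.0472). The BFA call ended without hypoxia DMSO array 1 (limma adjusted p = 0.0566), hypoxia DMSO array 2 (limma adjusted p = 0.0728) or BFA array 3 (limma adjusted p = 0.104). The EHT-1864 call ended without any single one of the 9 arrays of normoxia, hypoxia with DMSO and EHT-1864 (limma adjusted p from 0.0562 to 0.160). After quantile normalization the changes were -0.034 with BFA (limma adjusted p = 0.876) and -0.12 with EHT-1864 (limma adjusted p = 0.581), and median subtraction also ended both calls (limma adjusted p = 0.0599 and 0.0822). A further Egr3 cluster lay the other way, at 6.21 in hypoxia with DMSO and 6.82 with BFA (limma adjusted p = 0.0371). Both of these clusters carry identifiers that mark them as unmapped. The remaining Egr3 cluster, the one whose identifier is not so marked, was below the floor on all 12 arrays, with group means of 4.47 to 5.03, so Egr3 was not well above background there.

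**Figure D2:**
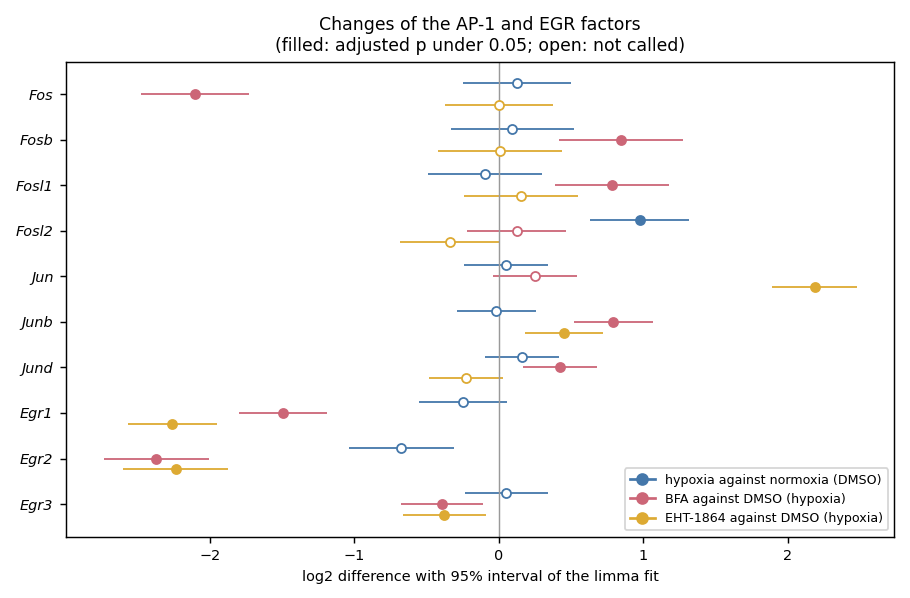
Log2 differences of each member with 95% intervals of the limma fit for hypoxia against normoxia and for each compound against DMSO in hypoxia, filled where called. Jun at 2.18 with EHT-1864, Fos at -2.10 with BFA, and Egr1 and Egr2 between -1.49 and -2.37 with either compound stand farthest from 0.

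**Figure D3:**
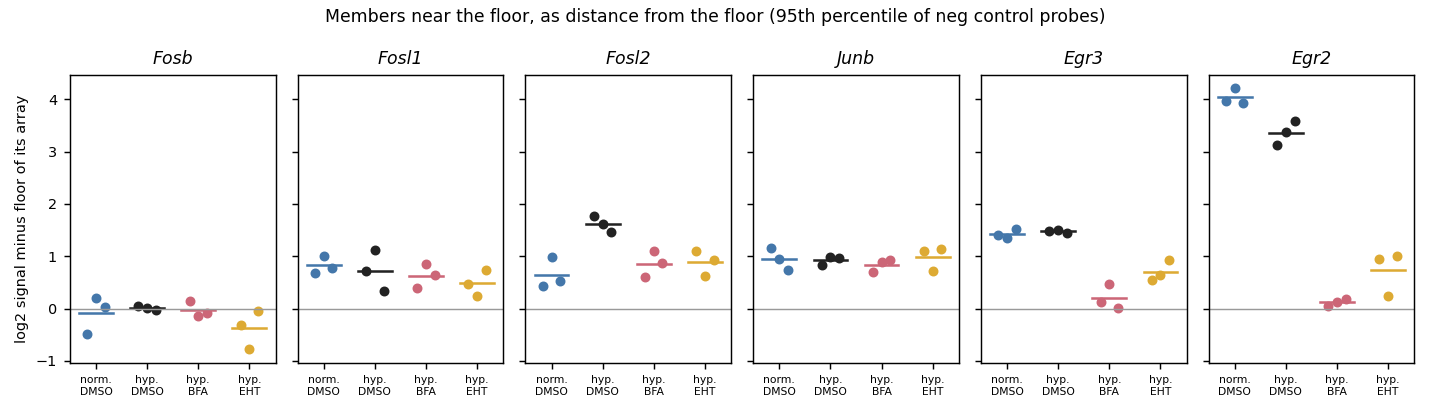
Log2 signal minus the floor of the same array for 6 members that came near the floor, with points for arrays and lines for group means. Fosl1 and Junb keep about the same distance from the floor with and without BFA (0.72 and 0.63, 0.93 and 0.84), whereas Egr2 drops from 3.36 to 0.12.

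Set directly against each other, BFA and EHT-1864 separated 8 of the 10 members, 6 higher and 2 lower with BFA, where 36.5% of all clusters were called (16.9% higher, 19.6% lower). The arrays of the 2 treatments did not overlap for 8 members (42.2% of all clusters). The members lower with BFA were Fos and Jun. The members with higher signal under it were Egr1, Jund by 0.65 ± 0.12 (limma adjusted p = 7.54e-04), Fosl1 by 0.63 ± 0.18 (limma adjusted p = 0.0151), Fosl2 by 0.46 ± 0.16 (limma adjusted p = 0.0365), Junb by 0.34 ± 0.13 (limma adjusted p = 0.0486) and Fosb by 0.84 ± 0.20 (limma adjusted p = 0.00455). For Fosb no fold is given, since it lay below the floor on all 3 EHT-1864 arrays and on 2 of 3 BFA arrays. Between the compounds, 4 members were called when measured from the floor, 0 higher and 4 lower with BFA. On that scale 8.71% of all called clusters were higher with BFA, so this split is no result about the members. The higher calls were then lost for Jund at 0.16 (limma adjusted p = 0.421), Fosl1 at 0.14 (limma adjusted p = 0.576), Fosb at 0.35 (limma adjusted p = 0.162) and Egr1, while Fosl2 at -0.024 and Junb at -0.15 changed sign. For Fosl1 the call ended without EHT-1864 array 2 (limma adjusted p = 0.0515). For Fosl2 it ended without BFA array 2 (0.0965), BFA array 3 (0.0638), EHT-1864 array 2 (0.108) or EHT-1864 array 3 (0.100), all limma adjusted p. For Junb it ended in 10 of the 12 fits that left out 1 array, all but those without normoxia array 1 or 3 (limma adjusted p from 0.0504 to 0.142). The labels do not settle whether the doses were equal, so these are differences between the 2 treatments as given.

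Against normoxia with DMSO, 9 members were called with BFA, 5 higher and 4 lower, where 47% of all clusters were (23% higher, 24% lower). With EHT-1864 5 were called, 3 higher and 2 lower, where 22.4% were (8.1% higher, 14.3% lower). BFA against normoxia gave 5 called members when measured from the floor, 0 higher and 5 lower. On that scale 17205 of 22206 clusters were called and 2.66% of those were higher, so this split is no result about the members. On the deposited scale the arrays did not overlap with those of normoxia for 10 members with BFA (53.6% of all clusters) and for 6 with EHT-1864 (42%). Egr2 was 8.24-fold lower with BFA (limma adjusted p = 2.36e-08) and 7.52-fold lower with EHT-1864 (limma adjusted p = 1.63e-07). Egr1 was 3.34-fold lower with BFA (limma adjusted p = 5.85e-07) and 5.68-fold lower with EHT-1864 (limma adjusted p = 1.46e-07). Jun was 4.70-fold higher with EHT-1864 (limma adjusted p = 2.68e-07), and with BFA its change was 0.30 (limma adjusted p = 0.0841). Of the weaker calls, Egr3 with BFA (limma adjusted p = 0.0491) ended in 9 of 12 fits without 1 array (0.0530 to 0.186). Junb with EHT-1864 (limma adjusted p = 0.0242) ended without normoxia array 2 or 3 or EHT-1864 array 1 or 3 (0.0679 to 0.106).

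Across the 12 arrays Egr1 and Egr2 followed each other most closely of all member pairs, with a Pearson r of 0.947. Jun and Egr1 gave -0.833, although with BFA Egr1 fell while the change of Jun was not called. Fos and Fosb gave -0.877 and Junb and Egr2 -0.857, but Fosb lay at the floor and the signal of Junb moved with the floor, so these values cannot be told apart from its shift. These r describe 12 arrays that fall into 4 groups and share their normalization, so they mainly reflect the group means. Among 9775 genes above the floor on at least 3 arrays, those most like Jun were Klf6, a zinc finger factor (r = 0.993), Hspa1b, a heat shock protein (0.993), and Ahr, the aryl hydrocarbon receptor (0.992). Klf6 read 7.68 in hypoxia and 10.43 with EHT-1864, and Ahr was below the floor on all arrays of the other groups and 7.55 with EHT-1864. Hspa1b has a near-identical copy, Hspa1a, so its signal may be shared. The genes most like Fos were Mb21d2 (0.990), Plppr3 (0.988) and Lpar1, a lysophosphatidic acid receptor (0.988), which was 7.96 in hypoxia and below the floor on all BFA arrays. Egr1 was most like Fam216a (0.990), Man1a2, a Golgi mannosidase (0.989), and Grk5, a receptor kinase (0.984). Egr2 was most like Ppp2r2c (0.986), Kpna2, a nuclear import receptor (0.983), and Mms22l (0.982). For Fosl2 the closest genes were Msrb1 (0.938), Cyb5r2 (0.934) and Ddr2, a collagen receptor (0.931). Cyb5r2 lay below the floor on all normoxia and all EHT-1864 arrays, and Grk5 on all arrays of both compounds. Mb21d2 and Mms22l did so on all BFA arrays.

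Among the partners that JUN or FOS proteins can pair with, Atf3, a stress-induced ATF factor, made the largest move. Its mean was 6.23 ± 0.25 in normoxia, 6.67 ± 0.06 in hypoxia, 9.73 ± 0.13 with BFA and 8.95 ± 0.03 with EHT-1864 (SD, n = 3). It rose by 3.07 ± 0.13 with BFA (limma adjusted p = 5.22e-09) and by 2.28 ± 0.13 with EHT-1864 (limma adjusted p = 2.36e-07), and BFA exceeded EHT-1864 by 0.79 (limma adjusted p = 4.50e-04). Of 12 partners measured of 14 listed, 7 rose and 0 fell under each compound, where 26.1% of all clusters rose with BFA and 13% with EHT-1864. The list's median change was 0.52 with BFA and 0.57 with EHT-1864, with 4 members below the floor in both groups of each comparison. The mean floor itself was 5.61 in both DMSO groups, 6.49 under BFA and 6.01 under EHT-1864. Measured from the floor, only 1.91% of all called clusters were higher under BFA and 4.70% under EHT-1864. The part of the floor's shift in the rises of the partners was not tested. Jdp2, a partner that represses AP-1 sites, rose by 1.11 ± 0.20 with BFA (limma adjusted p = 6.26e-04). Mafg, a small MAF protein, rose by 0.81 ± 0.14 with EHT-1864 (limma adjusted p = 7.31e-04). Maff, another small MAF protein, was the 1 partner of 12 called in hypoxia, where 2.67% of all clusters were called (2.11% higher). It was at least 1.41-fold higher than in normoxia (limma adjusted p = 3.70e-04), and rose by a further 0.66 with EHT-1864 (limma adjusted p = 0.00335).

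Srf, the serum response factor that recruits the ternary complex factors, moved in opposite directions under the compounds. It read 7.62 ± 0.17 in hypoxia, 7.24 ± 0.13 with BFA and 9.11 ± 0.06 with EHT-1864 (SD, n = 3). Srf fell by 0.38 ± 0.12 with BFA (limma adjusted p = 0.0207) and rose by 1.49 ± 0.12 with EHT-1864 (limma adjusted p = 3.57e-06), and the compounds differed by -1.87 (limma adjusted p = 1.62e-07). The ternary complex factor Elk3 fell under both, at least 2.68-fold with BFA (limma adjusted p = 1.25e-08) and by 2.32 ± 0.15 on the log2 scale with EHT-1864 (limma adjusted p = 4.00e-07). Elk4 fell by 0.45 with BFA (limma adjusted p = 0.0171) and by 0.66 with EHT-1864 (limma adjusted p = 0.00340). Of the 6 genes of this list, 3 fell and 0 rose with BFA, and 3 fell and 1 rose with EHT-1864, where 24.6% of all clusters fell with BFA and 17.4% fell and 13% rose with EHT-1864. The EGR corepressor Nab2 fell by 1.12 ± 0.19 with BFA (limma adjusted p = 3.49e-04) and by 1.48 ± 0.19 with EHT-1864 (limma adjusted p = 1.07e-04). Nab1 fell by 1.37 ± 0.14 with BFA (limma adjusted p = 5.63e-06), and these were the called genes among 4 EGR relatives and corepressors.

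Of 12 kinases and nuclear targets of the MAP kinase cascades measured of 17 listed, 8 fell and 1 rose with BFA and 5 fell and 0 rose with EHT-1864. Of all clusters 24.6% fell and 26.1% rose with BFA, and 17.4% fell and 13% rose with EHT-1864. The list's median change was -0.63 with BFA and -0.38 with EHT-1864, against 0.11 and 0.06 over all clusters. For each compound, 3 of the 12 lay below the floor in both groups compared. Mapk14, the p38α kinase, fell by 0.81 ± 0.15 with BFA (limma adjusted p = 6.02e-04) and by 0.76 ± 0.15 with EHT-1864 (limma adjusted p = 0.00209). Mapk9, the kinase JNK2, fell by 0.82 with BFA (limma adjusted p = 3.72e-04), and Map2k1, which activates ERK, fell by 0.83 with EHT-1864 (limma adjusted p = 4.16e-04). These are levels of RNA and not the activity of the kinases.

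The other immediate early genes moved in both directions. Of 33 measured, 8 rose and 15 fell with BFA, and 11 rose and 14 fell with EHT-1864, while hypoxia raised 2 and lowered 0. Of all clusters 26.1% rose and 24.6% fell with BFA, so the rises with BFA were near that share, and 13% rose and 17.4% fell with EHT-1864. In hypoxia 2.11% of all clusters rose and 0.563% fell. The list's median change was -0.12 with BFA and -0.10 with EHT-1864, against 0.11 and 0.06 over all clusters. For each compound, 5 of the 33 lay below the floor in both groups compared. With BFA the called genes of smallest p were Myc, a growth regulator, at -1.85 ± 0.11 (limma adjusted p = 5.42e-08), the nuclear receptor Nr4a1 at -1.54 ± 0.12 (limma adjusted p = 6.65e-07) and the kinase Sgk1 at -1.68 ± 0.15 (limma adjusted p = 1.41e-06). With EHT-1864 they were Klf6 at 2.75 ± 0.12 (limma adjusted p = 3.17e-08), the stress gene Gadd45b at 3.06 ± 0.15 (limma adjusted p = 7.77e-08) and Ier3, at least 3.88-fold lower (limma adjusted p = 1.75e-07). Ier3 had risen by 1.12 ± 0.14 in hypoxia against normoxia (limma adjusted p = 7.02e-04), as had Gadd45g by 0.90 ± 0.11 (limma adjusted p = 5.35e-04).

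**Figure D4:**
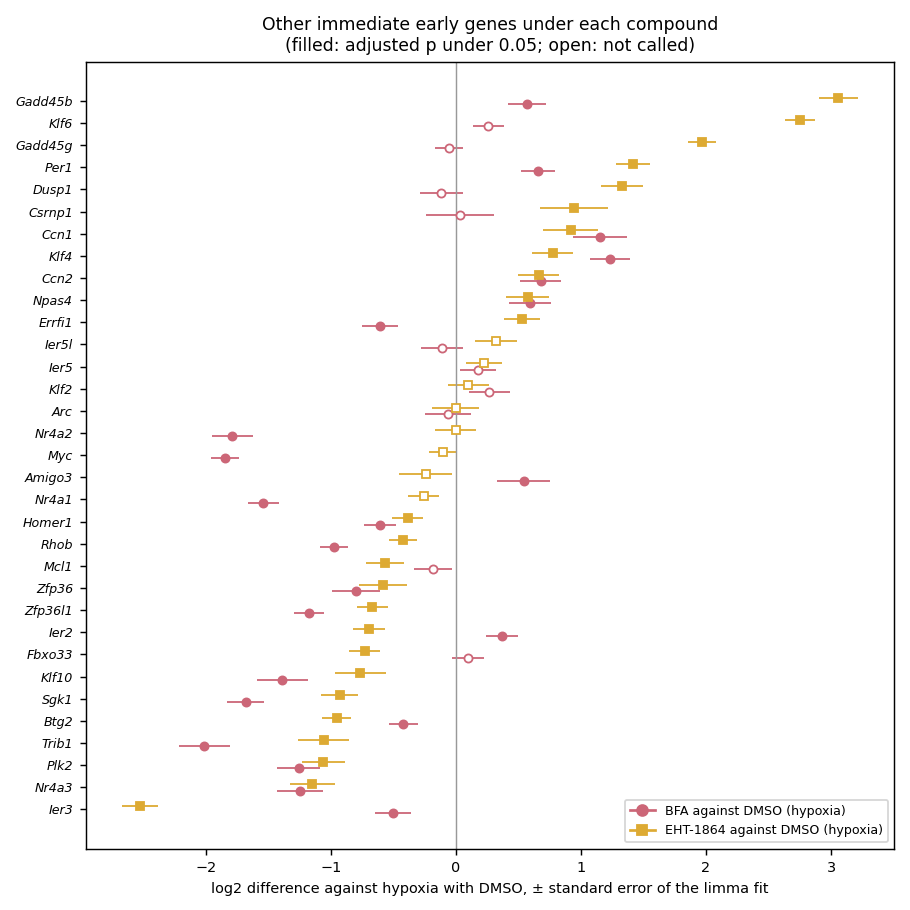
Log2 differences of 33 other immediate early genes against hypoxia with DMSO, ± the standard error of the limma fit, for BFA (circles) and EHT-1864 (squares), filled where called. Gadd45b and Klf6 lie farthest to the right under EHT-1864, at 3.06 and 2.75, and Myc at -1.85 is among the lowest under BFA.

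Among genes known as AP-1 or EGR targets, of 26 measured of 30 listed, 6 rose and 8 fell with BFA and 5 rose and 2 fell with EHT-1864, with 14 below the floor in both groups of each comparison. Of all clusters 26.1% rose and 24.6% fell with BFA, and 13% rose and 17.4% fell with EHT-1864. The totals called were near those shares and are no result about the list. Hmox1, the heme oxygenase that stress induces, rose by 1.92 ± 0.13 in hypoxia (limma adjusted p = 1.07e-06) and by a further 1.93 ± 0.13 with BFA (limma adjusted p = 9.64e-08). The adhesion receptor Cd44 rose by 1.33 ± 0.14 with EHT-1864 (limma adjusted p = 1.88e-05) and was lower with BFA than with EHT-1864 by -2.03 (limma adjusted p = 1.90e-07). The tissue factor gene F3 fell by 1.30 ± 0.13 (limma adjusted p = 4.92e-06) and the growth factor Pdgfa by 1.09 ± 0.11 (limma adjusted p = 4.03e-06), both with BFA.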

How the data were processed

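The deposited values were log2 signals, 1 per transcript cluster and array, made by the authors with RMA in Affymetrix Expression Console, per the submitters' processing notes. RMA corrects background, quantile-normalizes arrays and summarises probes, which hides changes in total RNA per cell. Versions, settings and genome build are not given in the sources used here. Of 28846 rows, 6640 controls were left out, and 22206 clusters were tested without a filter. Platform symbols, updated by Entrez number, named 19572 clusters, 0 had several symbols and 2634 had none. Groups came from the sample labels. No 2 arrays were identical.

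The 12 arrays were fitted together with limma 3.58.1 (lmFit, eBayes) in R 4.3.3, with 8 residual and 4.87 prior degrees of freedom and Benjamini-Hochberg adjustment. The script was tested on simulated data. The p-values measure the spread between arrays, which may be partly technical, and the 3 arrays per group limit the precision. Where all arrays of a group lay below the floor, the fold is a bound: the brighter group's mean against, per array of the dim group, the higher of the floor and its own value. The members and lists were chosen with earlier results of these data known. Genes named were all members, per list and comparison at most the 3 called genes of smallest adjusted p, and for members the 3 genes of highest Pearson r over the arrays; some were left out of the text. Same-numbered arrays did not deviate together (correlation above 0.1 in 1 of 18 pairs, from -0.18 to 0.17), so they were not treated as pairs. Alternatives were quantile normalization of the deposited values, median subtraction, 2 filters on dim clusters, a trended robust variance, array weights, a replicate block, only the 6 arrays compared and leaving out each array. Subtraction of the floor was chosen after seeing the data.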

Additional observations from a re-analysis of the deposited data

How the results depend on the processing

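A result counted as reversed when its sign changed and it was called in the main or the other fit. Results called in neither fit counted as kept, whatever their sign. Over 8 settings, 447 of 480 member results were kept in this sense, 18 lost a call, 15 gained one and 0 reversed. Leaving out each array kept 674 of 720, with 43 lost, 3 gained and 0 reversed. Uncalled results did change sign, such as Fosb in hypoxia against normoxia, at 0.093 in the main fit and down to -0.12 without 1 array. The BFA falls of Fos, Egr1 and Egr2, the EHT-1864 rise of Jun and falls of Egr1 and Egr2, the Fosl2 rise in hypoxia, and Fos and Jun between the compounds kept their calls in all 21 fits each, floor subtraction included. Egr2 in hypoxia against normoxia passed after quantile normalization (limma adjusted p = 0.0490), median subtraction (0.0429), without the dimmest 25% of clusters (0.0334), with log2 of at least 6 on 3 arrays (0.0147), with the trended robust variance (0.00616), with array weights (0.00822) and with only the 6 arrays (0.0379), so that 2 members were called there instead of 1. Without EHT-1864 array 2 its adjusted p was 0.0246, and without BFA array 1 it was 0.0492. These were the only 2 of 12 fits without 1 array that called it, and the limma adjusted p reached 0.222 in the others. Clusters called in hypoxia against normoxia numbered 593, and 1264 with the log2 filter, 1221 with the trended variance, 2258 with array weights, 294 measured from the floor and 1234 with only 6 arrays. The log2 filter gave 7215 for BFA against DMSO instead of 11269, testing fewer clusters. The cause of the other moves was not tested.

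Measured from the floor, clusters called against normoxia rose from 10432 to 17205 with BFA and from 4965 to 8098 with EHT-1864, and members called fell from 9 to 5 for BFA against normoxia and from 8 to 4 between the compounds (5 with array weights). BFA against hypoxia DMSO turned to -0.034 for Fosb, -0.095 for Fosl1, -0.76 for Fosl2, -0.63 for Jun, -0.086 for Junb and -0.45 for Jund. Between the compounds Fosl2 turned to -0.024 and Junb to -0.15, and BFA against normoxia to -0.20 for Fosl1, -0.58 for Jun, -0.11 for Junb and -0.30 for Jund. The share of called clusters that were higher moved from 51.5% to 1.91% for BFA, from 42.8% to 4.70% for EHT-1864, from 46.4% to 8.71% between them, from 49.0% to 2.66% and from 36.2% to 4.88% for each against normoxia, and from 78.9% to 89.5% in hypoxia; the median of all clusters with BFA moved from 0.11 to -0.76. After quantile normalization the share for EHT-1864 against normoxia was 46.9%. The further Egr3 cluster gave 0.61 with BFA, 0.21 with EHT-1864 and 0.42 for BFA against normoxia.

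With the replicate block 10938 clusters were called for BFA and 6349 for EHT-1864 against DMSO, and among the members 3 calls were lost: Junb between the compounds (limma adjusted p = 0.0697), Egr3 with EHT-1864 (0.0696) and Egr3 for BFA against normoxia (0.0703). Leaving out 1 array gave, of clusters and members called, 254 to 898 and 1 to 2 in hypoxia, 9538 to 11394 and 7 to 8 for BFA, 4986 to 7806 and 3 to 5 for EHT-1864, 6900 to 8280 and 5 to 8 between the compounds, 8503 to 10601 and 8 to 9 for BFA against normoxia, and 3451 to 5753 and 4 to 5 for EHT-1864 against normoxia. Signal over background limits Fos, Fosb, Fosl1, Fosl2, Junb, Egr2 and Egr3 under BFA, where their means lay within 1 log2 unit of the floor. With EHT-1864 the same held for Fosb, Fosl1, Fosl2, Junb, Egr2 and Egr3. Fosb, Fosl1 and Junb also lay this near the floor in both DMSO groups, and Fosl2 in normoxia, at 0.65.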
